A study of Mus musculus with 7 samples.

Results

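Potassium channel genes were examined in mouse dorsal root ganglia after sciatic nerve injury. They were chosen by symbol: Kcn, then a subfamily letter or letters, then a number. Of 54309 genes in the deposited table, 92 fitted this pattern, in 20 subfamilies. The samples were lumbar ganglia from male C57BL/6 mice aged 6 to 8 weeks, with a sciatic nerve injury made at ZT20 or ZT8, where ZT (Zeitgeber time) counts hours from lights on. Tissue was taken 72 h after injury, so injury and dissection share a clock time and cannot be told apart. ZT20 had 4 samples and ZT8 had 3, all injured, with no uninjured group. All were dissociated with dispase, collagenase and papain and passed over an albumin gradient that enriches neurons. The labels do not say whether a sample is 1 animal or a pool, so p-values measure the spread between these samples, which may in part be technical.

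Potassium channels let potassium leave the cell, which pulls the membrane back to rest and limits firing. Voltage-gated families shape the spike and the interval after it, KCNQ channels carry the slow M-current that restrains repetitive firing, leak channels set the resting potential, and calcium-activated and inward-rectifying families tie the current to other signals. In sensory neurons many of these genes are known to fall after axon injury, and sensory neurons that fire too readily are a known feature of neuropathic pain.

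Levels are given as TPM, a unit that scales reads by transcript length and then to a fixed total per sample, and differences as log2(TPM + 1) at ZT20 minus ZT8. Tests were made with limma, with Benjamini-Hochberg adjustment, over the 14800 genes whose mean reached 1 TPM. A gene is called when its adjusted p is under 0.05. Sequencing depth is unknown, since every column has the same sum.

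Some libraries stood apart. ZT20 replicates 3 and 4, labelled male, were listed at 0 TPM for the Y-linked genes Ddx3y, Eif2s3y and Uty. Xist, transcribed from the inactive X, was at 2.21 and 2.30 TPM there, at 1.08 TPM in ZT20 replicate 2, which also held Ddx3y at 11.7 TPM, and under 0.005 TPM in the other 4 libraries. ZT8 replicate 2 had 18297 genes above 0 TPM, against 22541 to 25238 in the other libraries, and was the lowest of the 7 libraries for 31 of the 61 channel genes tested. Without the 2 libraries lacking Y-linked transcripts, limma called 0 of 14800 genes and so 0 channel genes. An unadjusted p under 0.05 was found there for 2425 genes and 12 channel genes, 11 of the channel genes higher at ZT20. Fewer samples were fitted there. The median difference of channel genes was 0.33, against 0.52 with all libraries, and the 13 channel genes called with all libraries kept their direction. Markers fixed for the tissue were present: the summed TPM of 10 neuron markers was 17453 to 21154 at ZT20 and 13932 to 19716 at ZT8, and none of them was at 0 in any library. Of 8 satellite glia markers 3, Apoe and Fabp7 among them, were called lower at ZT20 and 0 higher, and Cdh19 differed by 0.38 the other way. Their sum, mostly Apoe, was 7639 to 9329 TPM at ZT20 and 12911 to 15721 TPM at ZT8. In bulk RNA, fewer cells of a type and less RNA per cell cannot be told apart.

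Levels spanned a wide range, and the highest belonged to 2 auxiliary subunits. Of the 92 genes, 61 reached a mean of 1 TPM and were tested, and 31 did not. Of those tested, Kcnt2, Kcnj11, Kcnk5 and Kcnk12 had a mean under 1 TPM in 1 of the groups. Kcne1 and Kcnj1 were listed at 0 in all 7 samples. The summed TPM of all 92 was 1451 to 2054 at ZT20 and 1018 to 1523 at ZT8, a share of 0.145% to 0.205% and of 0.102% to 0.152% of all TPM. Kcnab2, a cytoplasmic beta subunit of Kv1 channels, ranked first, at 467, 313, 502 and 544 TPM in the ZT20 samples and 357, 159 and 303 TPM in the ZT8 samples. Kcnip4, a calcium sensor that binds Kv4 channels, ranked next. Among pore-forming genes Kcna1, Kcnk1 and Kcnd1 had the highest means.

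**Figure D1:**
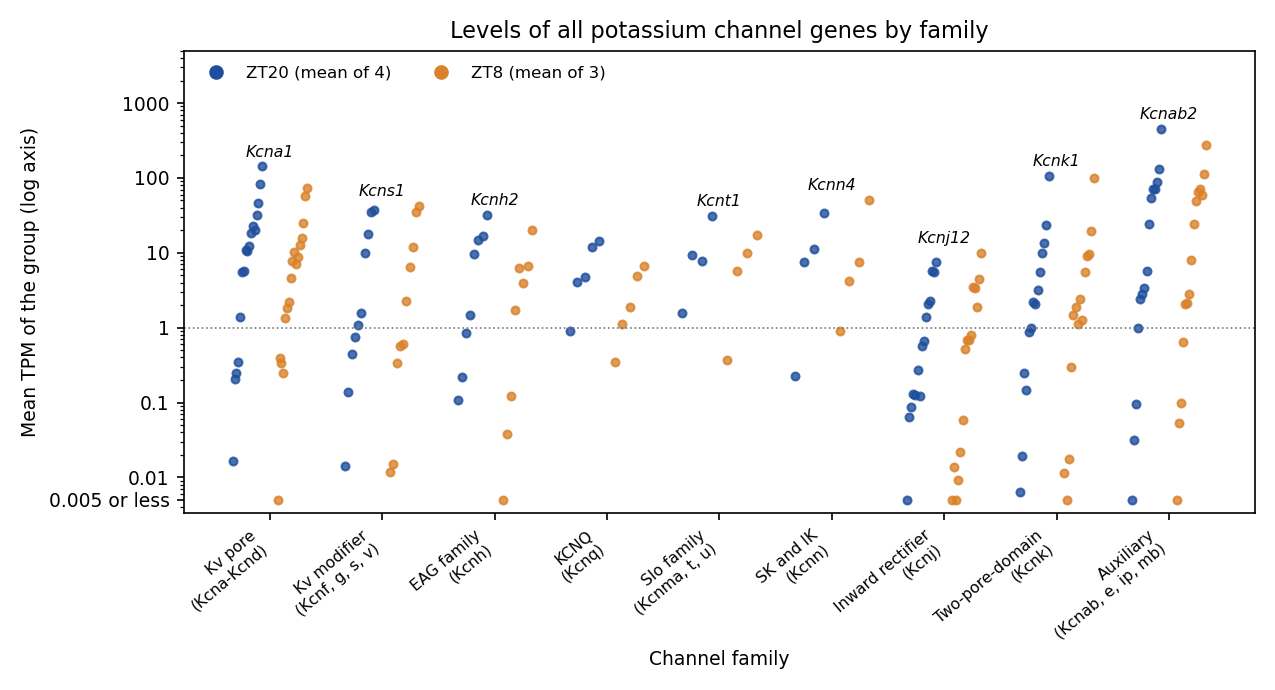
Mean TPM of each of the 92 potassium channel genes (vertical log axis) by channel family, in blue for ZT20 (4 samples) and orange for ZT8 (3 samples), with the most abundant gene named in most families. The dotted line marks 1 TPM. Values at or under 0.005 TPM are drawn at the lowest tick.

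In all, 12 voltage-gated pore genes were higher at ZT20 and 1 calcium-activated gene was lower, and for these 13 the groups did not overlap. Among the genes higher were Kcna2, Kcna6, Kcnb2, Kcnc2, Kcnd3, Kcnh1, Kcnh7, Kcnq3 and Kcnq5, and those called higher were at 1.87 to 3.73 times their mean TPM at ZT8. Kcnn4 was lower. Of all tested genes 16.4% were called in either direction. Of the tested channel genes 19.7% were called higher, against 12.8% of all tested genes, and 1.64% lower, against 3.61%. The median difference was 0.52 over the 61 channel genes and 0.23 over all tested genes. Of the channel genes 18 (29.5%) had all ZT20 samples above all ZT8 samples, against 24.5% of all tested genes, and 1 had them all below, against 8.72%. The shares were not compared by a test, so the counts do not set channel genes apart. Under median-ratio scaling 11 were called higher and 1 lower, against 7.35% and 8.47% of all tested genes, and the share of higher genes among all calls was 46.5% in place of 78.1%. Leaving out ZT20 replicate 1, 3 or 4 left 8, 4 and 6 of the channel genes called. All 13 kept their direction in every setting run, and Kcna2, Kcna6 and Kcnh1 were among those called whichever library was left out. Cell type markers moved along with these genes: of 9 nociceptor markers 5 were called higher, with a summed TPM of 4970 to 6919 at ZT20 and 4849 to 5795 at ZT8, and a score of neuron markers minus other markers was 4.91 to 5.41 at ZT20 and 4.43 to 4.94 at ZT8. With that score as a covariate limma called 0 genes, with 12 channel genes and 2595 genes at an unadjusted p under 0.05.

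**Figure D2:**
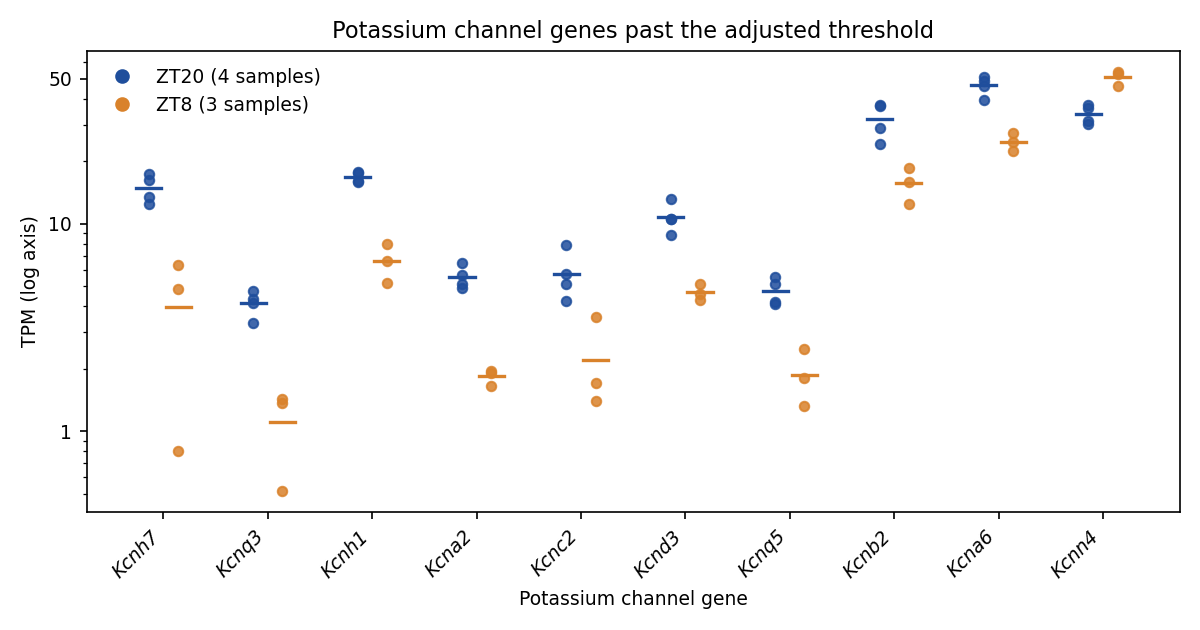
TPM (vertical log axis) of 10 of the called potassium channel genes in each sample, blue for ZT20 (4 samples) and orange for ZT8 (3 samples), with a bar at each group mean. In each of them the groups lie apart: 9 with all ZT20 samples above all ZT8 samples, and Kcnn4 with all ZT20 samples below.

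The calls of higher genes did not hold after a joint correction for transcript length and GC content, whose parts were not fitted apart. All 12 had a longest transcript above 4037 nt in GENCODE M21, with a median of 7725.5 nt, against 3619.5 nt for the 48 channel genes not called. When the tested genes were divided by length into 3 groups of like size, 26.6% of all genes and 42.9% of the 28 channel genes in the longest group were called higher. In the middle group the shares were 7.73% of all genes and 0 of 29 channel genes. Values were then corrected in each sample for a smooth dependence on length and GC content. After that 0 of the 12 passed, against 3.58% of all genes called higher and 5.26% lower. The 12 differences were then 0.25 to 1.21, all still positive, with limma adjusted p-values of 0.0704 to 0.421, and 6 channel genes had an unadjusted p under 0.05 in that direction. Kcnn4 was the one channel gene called after the correction.

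**Figure D3:**
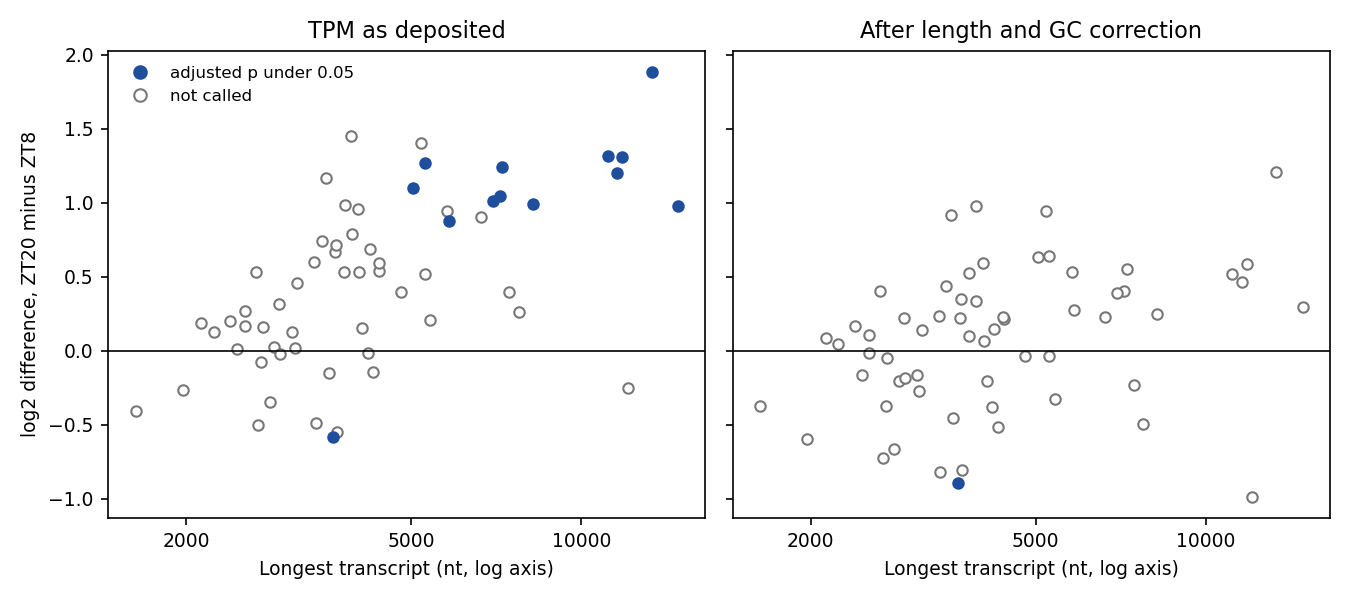
Log2 difference (ZT20 minus ZT8) of the 61 tested potassium channel genes against the length of the longest transcript (log axis), from TPM as deposited (left) and after correction for length and GC content (right). Filled points have an adjusted p under 0.05. On the left 12 long genes are called higher and Kcnn4 lower, and on the right Kcnn4 alone is called.

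Per-sample values below are in the order of replicates 1 to 4 at ZT20 and 1 to 3 at ZT8. Counts of calls in single families were not compared with those of other genes by a test. The Kv1 genes (Kcna) encode fast, low-threshold channels that sit beside the node and in the initial segment of myelinated axons. Kcna2 (ENSMUSG00000040724) was at 6.46, 5.10, 5.64 and 4.93 TPM at ZT20 and at 1.65, 1.95 and 1.92 TPM at ZT8. The lowest ZT20 sample was well above the highest ZT8 sample, and the mean was 3.01 times higher, with a log2 difference of 1.20 (standard error 0.21, limma adjusted p = 0.00980). Kcna6 (ENSMUSG00000038077) was at 46.3, 39.3, 51.2 and 48.9 TPM at ZT20 and at 27.2, 24.8 and 22.4 TPM at ZT8, again with no overlap (difference 0.88, standard error 0.15, limma adjusted p = 0.00887). Both calls held when any 1 library was left out. After the length and GC correction neither was called (differences 0.47 and 0.27, limma adjusted p = 0.209 and 0.212). Kcna1, the most abundant pore gene, was at 143, 89.9, 158 and 180 TPM and at 93.3, 48.1 and 78.4 TPM. ZT20 replicate 2 fell below ZT8 replicate 1, so the groups overlapped, and the difference of 0.96 did not pass (standard error 0.28, limma adjusted p = 0.0509). Without ZT20 replicate 2 or without ZT8 replicate 1 it was called (adjusted p down to 0.0301). Kcna4, an inactivating A-type channel of small neurons, was at 10.6 ± 2.01 and 7.84 ± 1.51 TPM (SD, n = 4 and 3), with overlapping groups, and its sign turned after the length and GC correction (0.39 and then −0.034). Kcna5 differed by 0.027. Of summed Kv1 TPM, Kcna1 took 62.5% to 72.2% at ZT20 and 55.4% to 71.5% at ZT8, Kcna6 took 19.6% to 27.4% and 19.9% to 28.6%, and Kcna4 took 4.49% to 6.07% and 4.99% to 10.9%. These ranges overlapped, and the shares were not tested.

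The Kv2 genes (Kcnb) encode the main delayed rectifiers of neuronal cell bodies. Kcnb2 (ENSMUSG00000092083), with the longest transcript of the called genes at 14845 nt, was at 28.9, 24.1, 37.4 and 36.8 TPM and at 15.9, 12.4 and 18.6 TPM (difference 0.98, standard error 0.21, limma adjusted p = 0.0189). All ZT20 samples were above all ZT8 samples, ZT8 replicate 2 was the lowest library, and ZT20 replicate 2 was the lowest of its group. The call was lost without ZT20 replicate 3 or 4 (adjusted p up to 0.0704).

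The Kv3 genes (Kcnc) encode channels that open and close fast enough for high firing rates. Kcnc2 (ENSMUSG00000035681) was at 4.25, 5.10, 7.93 and 5.69 TPM and at 3.53, 1.40 and 1.71 TPM (difference 1.10, standard error 0.30, limma adjusted p = 0.0400). All ZT20 samples were above all ZT8 samples, but ZT20 replicate 1 and ZT8 replicate 1 lay close together. Leaving out 1 library ended the call in 6 of 7 fits, with adjusted p-values of up to 0.120. Kcnc4, the Kv3 gene best known in nociceptors, was at 15.8, 17.1, 24.1 and 22.9 TPM and at 12.6, 7.70 and 17.8 TPM and was not called, with overlapping groups (adjusted p = 0.131), and Kcnc1 differed by 0.26 with overlapping groups, and by −0.50 after the length and GC correction.

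The Kv4 genes (Kcnd) carry the A-type current that delays the spike. Of the 2 tested 1 was called, against 16.4% of all tested genes. Kcnd3 (ENSMUSG00000040896) was at 8.83, 10.5, 13.1 and 10.6 TPM and at 4.29, 4.57 and 5.13 TPM. All ZT20 samples were above all ZT8 samples, the mean was 2.31 times higher and the difference was 1.04 (standard error 0.19, limma adjusted p = 0.0122). The call was lost without ZT20 replicate 3 (adjusted p = 0.0549) and after the length and GC correction (difference 0.40, limma adjusted p = 0.209). Kcnd1, the X-linked and far more abundant Kv4 gene, was at 82.9, 61.1, 99.6 and 90.1 TPM and at 67.8, 46.2 and 59.0 TPM. Its groups overlapped, the difference of 0.52 did not pass (adjusted p = 0.103, and 0.0495 without ZT20 replicate 2), and it was −0.039 after the length and GC correction. The share of Kcnd3 in summed Kv4 TPM was 9.61% to 14.6% at ZT20 and 5.91% to 8.99% at ZT8. This share does not depend on the scaling of whole libraries, but it was not corrected for length and GC. Kcnd2 was under 1 TPM in every sample.

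The 4 Kv4-binding calcium sensors (Kcnip) had differences of 0.016 to 0.20, with overlapping groups. Of the 4, 0 were called, against 16.4% of all tested genes. Kcnip4 was at 117, 122, 155 and 131 TPM and at 112, 96.2 and 135 TPM. The groups overlapped, and the small positive difference turned to −0.048 under median-ratio scaling. Kcnip2 was at 71.5 ± 14.4 and 72.0 ± 22.2 TPM (SD, n = 4 and 3). Dpp6, a membrane partner of Kv4 channels, was at 162 ± 25.4 and 97.8 ± 32.5 TPM (SD, n = 4 and 3) with no overlap, and did not pass (adjusted p = 0.0635).

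The KCNQ genes encode the M-channel, which opens slowly near rest and is closed by inflammatory mediators acting through Gq-coupled receptors. Kcnq3 (ENSMUSG00000056258), an M-channel subunit, was at 3.32, 4.14, 4.72 and 4.33 TPM and at 1.37, 0.513 and 1.43 TPM (difference 1.31, standard error 0.26, limma adjusted p = 0.0153). Kcnq5 (ENSMUSG00000028033), a further M-channel subunit, was at 4.17, 4.10, 5.12 and 5.52 TPM and at 1.80, 1.32 and 2.49 TPM (difference 1.01, standard error 0.24, limma adjusted p = 0.0257). Leaving out ZT20 replicate 3 or 4 ended both calls, and leaving out ZT20 replicate 1 ended that of Kcnq5, with adjusted p-values of up to 0.0880. In both genes all ZT20 samples were above all ZT8 samples, and ZT8 replicate 2 was the lowest library. After the length and GC correction the differences of Kcnq3 and Kcnq5 were 0.59 and 0.39, with adjusted p-values of 0.190 and 0.297.

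The EAG genes (Kcnh) encode voltage-gated channels with a cyclic-nucleotide-binding-like domain. Of 5 tested 2 were called higher, against 12.8% of all tested genes and 26.6% of those in the longest length group. Kcnh1 (ENSMUSG00000058248), the founding member, was at 15.8, 16.0, 17.8 and 17.5 TPM and at 6.63, 5.20 and 7.95 TPM. It had the smallest p-value of the channel genes (difference 1.24, standard error 0.18, limma adjusted p = 0.00646), the call held when any 1 library was left out, and its adjusted p after the length and GC correction was 0.0704. Kcnh7 (ENSMUSG00000059742), an Erg-type channel, had the largest difference at 1.88 (standard error 0.44, limma adjusted p = 0.0250). It was at 13.4, 12.4, 16.2 and 17.3 TPM and at 6.31, 0.805 and 4.85 TPM, so ZT8 replicate 2 lay far below the other ZT8 samples, and without it the difference was 1.26 and still called. Leaving out ZT20 replicate 1, 3 or 4 ended the Kcnh7 call (adjusted p up to 0.0805). Kcnh1 overlaps Hhat, and Kcnh7 overlaps Gca, on the opposite strand in GENCODE M21, and how reads were shared between them is not stated. Kcnh2, the cardiac Erg channel gene and the most abundant EAG gene here, was at 33.5, 22.9, 35.8 and 35.8 TPM and at 23.7, 12.5 and 23.7 TPM. ZT20 replicate 2 fell below 2 of the ZT8 samples, and Kcnh2 was not called (adjusted p = 0.101).

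**Figure D4:**
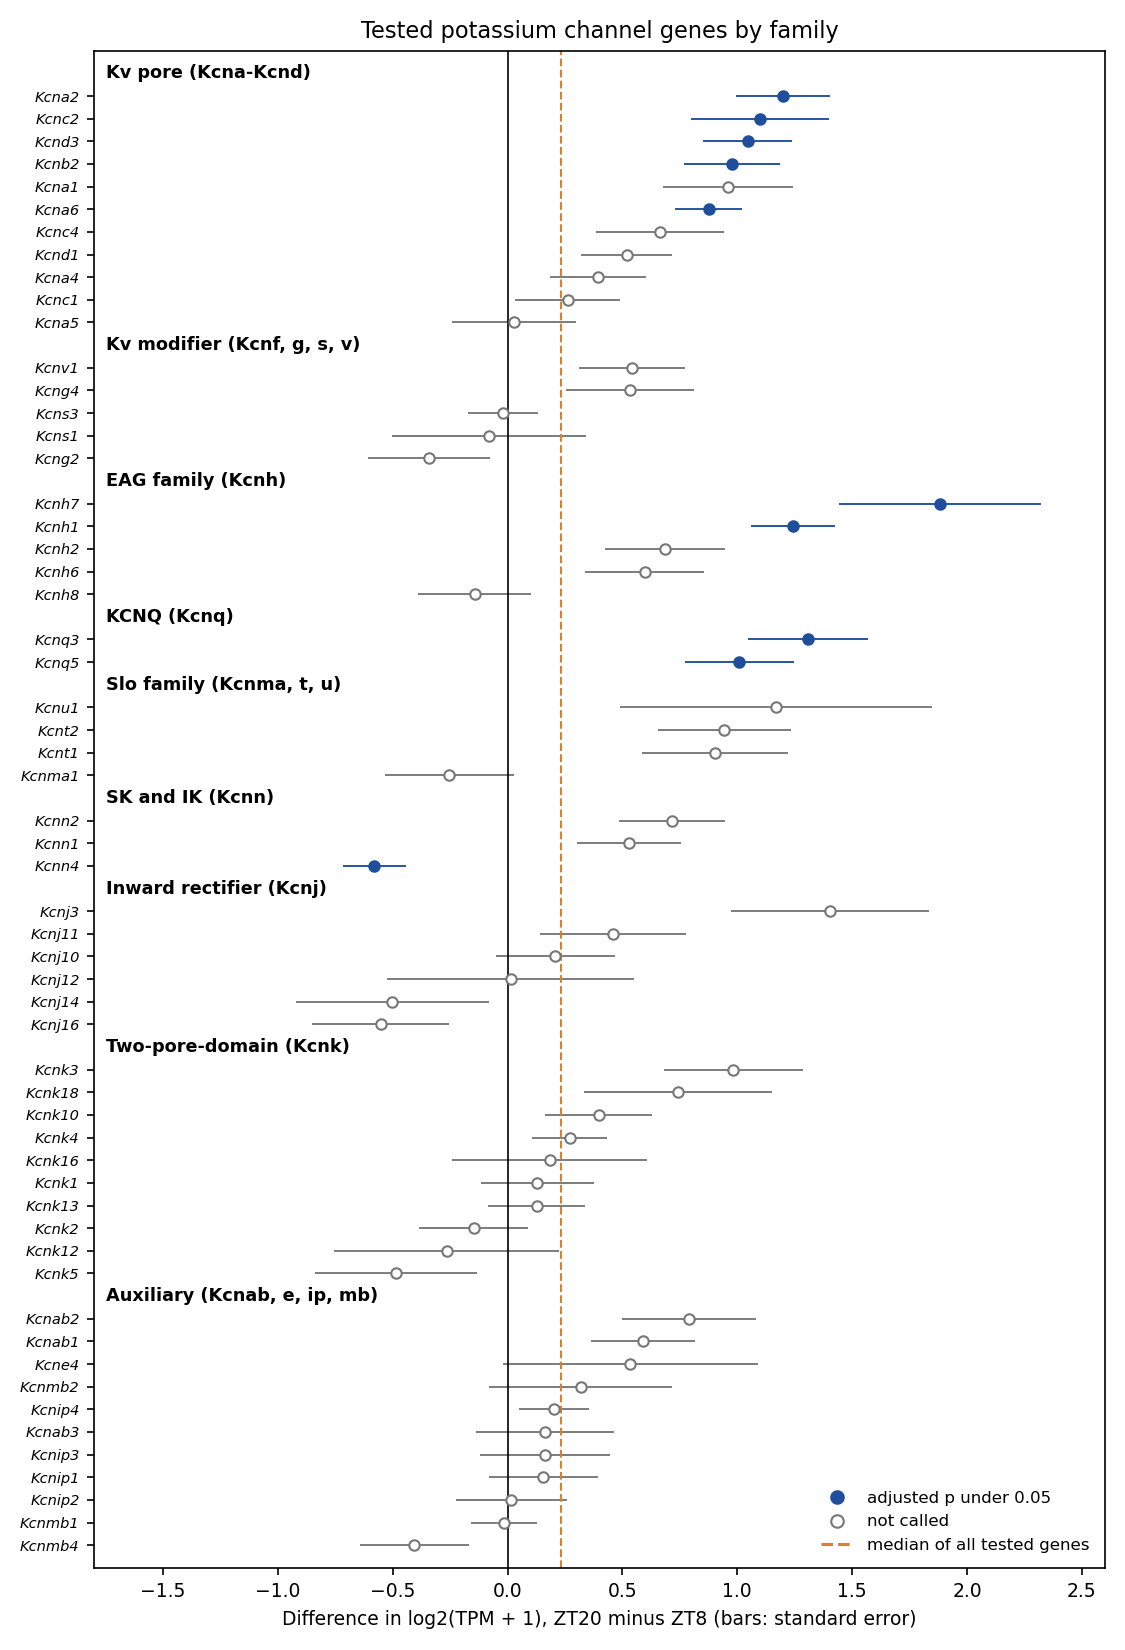
Log2 difference in TPM + 1 (ZT20 minus ZT8, horizontal axis) of 57 tested potassium channel genes, grouped by family, with bars of 1 standard error. Filled points have an adjusted p under 0.05, and the dashed line marks the median of all tested genes (0.23). Calls lie in the Kv pore, EAG and KCNQ families, all to the right, and in Kcnn4 to the left.

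Kcnn4 encodes the intermediate-conductance calcium-activated channel, known from red cells, lymphocytes, macrophages and other non-excitable cells and also found in sensory neurons. Kcnn4 (ENSMUSG00000054342) was at 36.2, 31.2, 30.3 and 37.3 TPM at ZT20 and at 52.5, 54.0 and 46.0 TPM at ZT8. All ZT20 samples were below all ZT8 samples, the ZT8 mean was 1.51 times the ZT20 mean, and the log2 difference was −0.58 (standard error 0.14, limma adjusted p = 0.0261). Correcting for length and GC gave −0.90 (adjusted p = 0.0174), and median-ratio scaling gave −0.83 (adjusted p = 0.0128). Leaving out 1 library ended the call in 5 of 7 fits, with differences of −0.65 to −0.53 and adjusted p-values of 0.0340 to 0.0890. Markers of immune cells also had lower sums at ZT20. The summed TPM of 8 macrophage markers was 104 to 153 at ZT20 and 360, 163 and 158 at ZT8. Of these markers 1 was called lower (C1qa) and 1 higher (Mrc1), and Adgre1 also had a positive difference (0.19). For 5 plasma cell markers the sums, mostly Jchain and Sdc1, were 108 to 296 and 364 to 708 TPM. Mzb1 was called lower, Jchain was not called and Sdc1 differed by −0.0047. Mzb1, Derl3 and Tnfrsf17 were at 0 in at least 1 library. The part of these cells, and of satellite glia, in the Kcnn4 difference was not tested.

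The small-conductance genes Kcnn1 and Kcnn2 had positive differences that did not pass, and Kcnn3 was too low to be tested (0.120 to 0.363 TPM at ZT20 and 0.0997 to 2.04 TPM at ZT8). Kcnn2 was at 8.26, 6.28, 7.75 and 7.46 TPM and at 4.37, 2.88 and 5.43 TPM, without overlap, and missed the threshold (difference 0.72, standard error 0.23, adjusted p = 0.0649). Kcnn1 was at 11.3 ± 1.86 and 7.61 ± 2.26 TPM (SD, n = 4 and 3), with overlapping groups (adjusted p = 0.137). Kcnn4 therefore made up 58.8% to 66.4% of summed Kcnn TPM at ZT20 and 74.0% to 83.3% at ZT8. No scaling of whole libraries can change this ratio within each library, but it was not corrected for length and GC. Kcnn1 and Kcnn2 each took a larger share at ZT20, again without overlap.

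**Figure D5:**
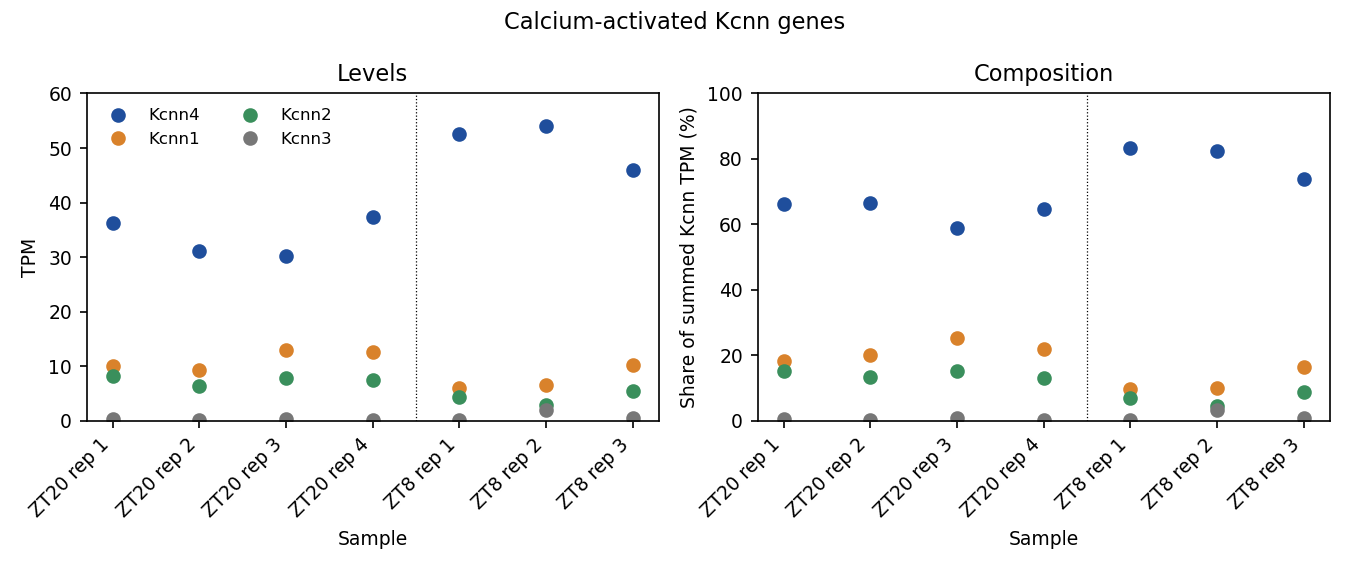
TPM of the 4 Kcnn genes in each sample (left) and the share of each in their summed TPM, in percent (right), with the 4 ZT20 samples left of the dotted line and the 3 ZT8 samples right of it. Kcnn4 holds 58.8% to 66.4% at ZT20 and 74.0% to 83.3% at ZT8.

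Since the groups differ in clock time, the promoters of the channel genes were searched for the binding letters of clock factors, and the windows of the called genes that held one are shown. Each window runs from 250 bases before to 50 bases after a RefSeq transcription start in GRCm38.p6, written 5′ to 3′ on the gene's strand. The table's values come from GRCm39 per the submitters' processing notes, so these coordinates go with the sequences only. Windows were matched by symbol for 67 of the 92 channel genes and 8 of the 13 called. The E-box CACGTG, the site of CLOCK and BMAL1, was held by 6 of the 67 (8.96%) and by 8.09% of all 27025 genes with a window. AGGTCA, the core of the ROR and REV-ERB site, was held by 6 (8.96%) against 18.1% of all genes, and the D-box TTATGTAA by 0 against 1.11%. Both strands were searched. Among called genes the E-box lay in the Kcnn4 window (chr7:24370013-24370312, plus strand, its first base 133 bases before the start) and AGGTCA, on the minus strand, so that the printed strand reads TGACCT, in that of Kcnh1 (chr1:192190527-192190826, plus strand, 223 bases before the start). Capitals mark these letters, and a match of letters is not a bound site.
Kcnn4: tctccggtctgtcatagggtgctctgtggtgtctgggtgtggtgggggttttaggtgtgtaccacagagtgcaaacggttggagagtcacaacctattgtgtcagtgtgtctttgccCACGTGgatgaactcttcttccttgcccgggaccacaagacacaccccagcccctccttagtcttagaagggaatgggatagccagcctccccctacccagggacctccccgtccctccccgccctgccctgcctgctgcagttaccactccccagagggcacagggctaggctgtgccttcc
Kcnh1: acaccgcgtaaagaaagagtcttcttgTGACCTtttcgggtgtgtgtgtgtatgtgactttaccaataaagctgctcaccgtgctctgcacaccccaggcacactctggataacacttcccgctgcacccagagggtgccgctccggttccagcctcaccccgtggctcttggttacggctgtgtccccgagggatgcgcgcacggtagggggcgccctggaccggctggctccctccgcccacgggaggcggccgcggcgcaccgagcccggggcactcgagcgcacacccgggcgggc

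The Slo genes encode channels that respond to ions inside the cell, such as calcium or sodium. Kcnma1, the pore of the BK channel, was at 6.34, 9.45, 7.08 and 7.78 TPM and at 6.17, 14.6 and 8.63 TPM. It has a long transcript (12094 nt) and was not called, with overlapping groups and a difference of −0.25 (standard error 0.28, adjusted p = 0.546), which was −0.99 after the length and GC correction (adjusted p = 0.0552) and 0.048 without ZT8 replicate 2. Kcnt1, a sodium-activated channel that limits firing of nociceptors, was at 31.1, 22.7, 38.9 and 31.3 TPM and at 19.5, 8.67 and 23.0 TPM. ZT20 replicate 2 fell just below ZT8 replicate 3, and Kcnt1 was not called (difference 0.90, adjusted p = 0.0843). Its relative Kcnt2 was at 1.15 to 2.01 TPM at ZT20 and at 0 to 0.713 TPM at ZT8, without overlap, but it reached the filter only through the ZT20 samples, so its p-value is not given. The BK beta subunits (Kcnmb) gave 0 calls in 3 tested, against 16.4% of all tested genes. Kcnmb1 was at 23.9 ± 2.29 and 24.1 ± 1.66 TPM (SD, n = 4 and 3), and because it overlaps Kcnip1 on the opposite strand in GENCODE M21, its reads and those of Kcnip1 may not be separable.

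Leak channels with tandem pore domains (Kcnk), which hold the membrane near rest, gave 0 calls in 10 tested, against 16.4% of all tested genes. Their median difference was 0.16, against 0.23 over all tested genes. Kcnk1 was at 132, 78.4, 109 and 106 TPM and at 97.7, 67.5 and 133 TPM, with groups that spanned nearly the same range. Kcnk4, the mechanically gated TRAAK, was at 29.0, 21.1, 23.6 and 21.5 TPM and at 19.2, 21.3 and 17.9 TPM. Kcnk2, the related TREK channel, was at 1.74 to 2.34 TPM at ZT20 and 1.95 to 3.18 TPM at ZT8. Kcnk18, the TRESK channel of nociceptors and the target of calcineurin, was at 2.24, 1.37, 2.80 and 2.45 TPM and at 1.07, 0 and 2.26 TPM. These 4 did not pass (adjusted p from 0.230 to 0.738). Kcnk3, an acid-sensitive channel, came nearest: all ZT20 samples (3.05 to 3.35 TPM) were above all ZT8 samples (0.413 to 2.18 TPM), with an adjusted p of 0.0579. Kcnk10, Kcnk13 and Kcnk16 had overlapping groups and adjusted p-values from 0.257 to 0.784, and Kcnk5 and Kcnk12, which reached the filter only through the ZT8 samples, also had overlapping groups.

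Inward rectifiers (Kcnj) also gave 0 calls in 6 tested, against 16.4% of all tested genes. Kcnj10, the channel with which satellite glia take up potassium, was at 3.45, 5.14, 6.07 and 7.44 TPM and at 4.35, 5.25 and 3.98 TPM. Its groups overlapped (difference 0.21, adjusted p = 0.596) although 3 satellite glia markers were called lower at ZT20, among them Apoe (difference −0.88, adjusted p = 0.00657), and the Kcnj10 difference turned negative under each other scaling, from −0.0026 under median-ratio scaling to −0.33 after the length and GC correction. Kcnj3, a G-protein-gated channel through which opioid receptors can act, was at 5.65, 4.43, 6.97 and 6.10 TPM and at 2.81, 0.134 and 2.80 TPM. The groups did not overlap, but Kcnj3 was not called (difference 1.40, standard error 0.43, adjusted p = 0.0579). Kcnj12 had the largest SD in TPM of the 6 at ZT8 (8.90), with 2.18, 19.7 and 8.24 TPM there around 5.65 to 8.71 TPM at ZT20. Kcnj11, Kcnj14 and Kcnj16 were at 0.208 to 4.57 TPM in single samples and were not called.

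Modifier genes, whose products cannot form channels alone and assemble with Kv2, gave 0 calls in 5 tested, against 16.4% of all tested genes. Kcns1, an A-fibre gene whose variants have been tied to pain, was at 21.6, 38.6, 46.7 and 40.2 TPM and at 49.1, 17.3 and 61.2 TPM. The spread within each group exceeded the difference of −0.080, and its sign turned when ZT20 replicate 1, ZT8 replicate 1 or ZT8 replicate 3 was left out. Kcns3 was at 34.6 ± 5.18 and 34.8 ± 1.39 TPM (SD, n = 4 and 3). Kcnv1 was at 15.3 to 20.8 TPM at ZT20 and 7.93 to 14.9 TPM at ZT8, without overlap (adjusted p = 0.134). Kcng4 and Kcng2 overlapped between groups. The beta subunits Kcnab1 and Kcnab2 had differences of 0.59 and 0.79 with overlapping groups (adjusted p = 0.104 and 0.0939), Kcnab3 of 0.16, and Kcne4, a regulatory subunit, was at 0 to 4.66 TPM.

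Partners of the channels came from a list of 38 genes, of which 31 were tested, with 9 called higher, 1 lower and a median difference of 0.61, against 12.8% higher and 3.61% lower over all tested genes and a median of 0.23. In the longest of the 3 length groups 26.6% of all genes were called higher, and none of these counts was set against the rest by a test. In the complex that holds Kv1 channels at the juxtaparanode and initial segment, 5 of 11 were higher: Adam22, Adam23, Cntn2, Dlg2 and Epb41l3. Adam22, a receptor for LGI proteins, was at 126, 178, 128 and 154 TPM and at 36.1, 68.9 and 27.0 TPM (difference 1.81, standard error 0.29, limma adjusted p = 0.00795). Its relative Adam23 was at 52.7, 42.9, 57.1 and 59.8 TPM and at 19.4, 18.9 and 16.5 TPM (difference 1.48, standard error 0.16, limma adjusted p = 0.00221). The groups lay apart in both, and both were also called after the length and GC correction (differences 1.13 and 0.89, adjusted p = 0.0393 and 0.0120), when 4 partners were higher and 4 lower, against 3.58% and 5.26% of all genes. Cntnap2, the scaffold of the same complex, was at 108 ± 8.64 and 124 ± 32.3 TPM (SD, n = 4 and 3) and was not called, but after the correction it was called lower at ZT20 (difference −0.85, adjusted p = 0.0277). Ank3, the ankyrin that anchors KCNQ channels at the initial segment, was higher by 1.38 (standard error 0.20, limma adjusted p = 0.00577) but not after the correction (adjusted p = 0.0708). Ppp3ca and Ppp3cb, calcineurin subunits, were also higher, and after the correction Ppp3ca was called (adjusted p = 0.0167) and Ppp3cb was not (adjusted p = 0.114). Of 4 repressors known to silence channel genes in injured sensory neurons, 3 were tested and 0 called, with Rest at 2.29 ± 0.468 and 2.06 ± 0.465 TPM (SD, n = 4 and 3).

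The 31 genes under the filter were at most 2.04 TPM in any sample, a value of Kcnn3 in ZT8 replicate 2. They were Kcna3, Kcna7, Kcna10, Kcnd2, Kcne1, Kcne2, Kcne3, Kcnf1, Kcng1, Kcng3, Kcnh3, Kcnh4, Kcnh5, Kcnmb3, Kcnn3, Kcnq1, Kcns2, Kcnv2, the inward rectifiers Kcnj1, Kcnj2, Kcnj4, Kcnj5, Kcnj6, Kcnj8, Kcnj9, Kcnj13 and Kcnj15, and the leak channels Kcnk6, Kcnk7, Kcnk9 and Kcnk15. Kcnk9, the acid-sensitive TASK channel often studied in brain, was at 0 to 0.0343 TPM.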

How the data were processed

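RNA of neuron-enriched lumbar ganglia was sequenced after low-input library preparation, per the labels' protocols. The authors deposited 1 table of TPM per gene and sample. The submitters' processing notes name FastQC 0.11.9, Trim Galore 0.6.6, Salmon 1.6.0, DESeq2 1.34.0 and GRCm39. The annotation release is not given in the sources used here. TPM keeps no depth, so no count test was run. Library names in the sample descriptions are numbered at ZT20 and lettered at ZT8, and if this marks a batch, it and the group cannot be told apart.

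From TPM, log2(TPM + 1) was fitted with limma 3.58.1 (trend, R 4.3.3) for genes whose mean reached 1 TPM, after a check on simulated data. Fold changes on this scale understate low genes. Alternatives were a pseudocount of 0.1, no filter, median-ratio and quantile scaling, a loess correction for length and GC (GENCODE M21, span 0.3), a replicate block, a marker score, array weights and left-out libraries. The members and lists, and the rule for named genes (called members, the most abundant of each family and genes of known roles in sensory neurons), were chosen with earlier results of these data known. Other members given with values (such as Kcnn2, Kcnj3 and Kcnk3) were added after their values were seen. Some genes are not reported here by name and are not drawn by name, although the counts include them.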

Additional observations from a re-analysis of the deposited data

How the results depend on the processing

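Of 61 channel genes 13 were called, 12 higher and 1 lower at ZT20, with 10 partners and 2433 genes in all. For channel genes called, the count was 8 (7 higher, 1 lower) with no filter on low values, 1 (0 higher) after the length and GC correction, 1 (0 higher) with the replicate block and that correction, and 0 with the marker score or without the 2 ZT20 libraries lacking Y-linked transcripts. The count was 13 with a pseudocount of 0.1, 12 and 10 under median-ratio and quantile scaling, and 19 with array weights. Partners called numbered 17 with array weights, 5 with the replicate block and the length and GC correction, and 0 with the marker score or without those 2 libraries. All genes called numbered 1178 with no filter, 1304 after the correction, 520 with the block as well, 3899 with array weights, and 0 in the same 2 settings that gave 0 partners. Leaving out each library in turn gave 4 to 13 channel genes called, 4 to 13 higher, 0 to 1 lower, 4 to 14 partners and 624 to 3055 genes in all. Fewer samples were fitted there, and otherwise the cause was not tested.

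Replicate numbers do not name an animal or day. Same-numbered samples correlated by −0.014, 0.15 and 0.083 in their deviations from group means. With groups of 4 and 3 samples, these values cannot show whether same-numbered samples share an animal, litter or day. With the replicate block, which drops ZT20 replicate 4, 8 channel genes were called (8 higher, 0 lower), 6 of them among the 13, and 1174 genes in all. Not every sample correlated best with its own number.

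No called channel gene changed direction. Among uncalled genes that the naming rule chose, the sign turned with array weights for Kcne4 (−0.0052) and Kcnmb1 (0.00095). It turned after the length and GC correction for Kcna4 (−0.034), Kcnd1 (−0.039), Kcnj10 (−0.33) and Kcnj12 (−0.17), and with the block added for Kcna4 (−0.12), Kcnd1 (−0.049), Kcng4 (−0.0025), Kcnj10 (−0.43) and Kcnj12 (−0.031). With the marker score it turned for Kcns1 (0.13), Kcnj12 (−0.93) and Kcnk1 (−0.23). Under median-ratio scaling it turned for Kcnip4 (−0.048), Kcnj10 (−0.0026), Kcnj12 (−0.21) and Kcnk1 (−0.12), and under quantile scaling for Kcnj10 (−0.14) and Kcnj12 (−0.30). Other uncalled members also turned after the length and GC correction, Kcnc1 (−0.50), Kcna5 (−0.21), Kcnip2 (−0.27), Kcnab3 (−0.016), Kcnk10 (−0.23) and Kcnk13 (−0.17) among them. Without the libraries lacking Y-linked transcripts it turned for Kcnj10 (−0.075). With each library left out, the differences ran from −0.51 to 0.048 for Kcnma1, −0.62 to 0.27 for Kcns1, −0.13 to 1.12 for Kcne4, −0.067 to 0.042 for Kcnmb1, −0.69 to 0.66 for Kcnj12, −0.12 to 0.36 for Kcnk1 and −0.24 to 0.0077 for Kcnk2. The cause was not tested. Depth is unknown, so precision at low TPM rests on the samples alone.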

Other observations

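Kcnu1, a pH-sensitive Slo channel known from sperm, was at 10.6, 7.47, 9.50 and 10.2 TPM at ZT20 and at 7.54, 0.126 and 9.27 TPM at ZT8, so 6 of 7 libraries held it at 7.47 TPM or more, in the range of Kcnma1. ZT8 replicate 2 was the low library, as it was for Kcnh7 and Kcnj3. The same library was the highest of the 7 for 11 tested channel genes, among them Kcnj12 (19.7 TPM) and Kcnk16 (10.5 TPM), a leak channel known from pancreatic islets.

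Other marker and partner lists are given by their counts, beside 12.8% of all tested genes called higher. Of 8 markers of large-diameter neurons 2 were called higher, with a summed TPM of 1426 to 1665 at ZT20 and 827 to 1844 at ZT8. Of 8 Schwann cell markers 0 were called, with sums of 1157 to 1312 and 961 to 1359 TPM, and of the 4 vascular markers tested 0 were called. Abcc8, the sulfonylurea receptor of the KATP channel, differed by 0.91 (limma adjusted p = 0.0777), and 0 of 3 genes tied to Kv2 clustering were called before the length and GC correction. After it Vapb, which tethers Kv2 channels to the endoplasmic reticulum, was lower at ZT20 by −1.47 (limma adjusted p = 0.0378).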
